A study of Mus musculus with 12 samples.

Results

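The comparison described here sets irradiated murine embryonic fibroblasts (MEFs) that lack Pak1 (KO-IR) against irradiated MEFs that carry it (WT-IR). Its members are the 3 arrays labelled Pak1 knock-out with ionizing radiation and the 3 arrays labelled Wildtype with ionizing radiation, 6 of the 12 arrays in the series, and the other 6 are 3 arrays each of the same genotypes without irradiation (KO and WT). Per the labels, the knockout removes Pak1 from the whole body of C57Bl6J mice, and all 4 groups are MEFs from embryos of embryonic day 13.5 that were immortalised with SV40 T antigen. Irradiation was with gamma rays from a caesium source, and control cultures were handled alike without it. How much radiation the cells received and how long afterwards they were harvested is not given in the sources used here, nor is the number of embryos or cell lines behind a genotype, so a difference between lines cannot be told apart from a difference between genotypes.

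Pak1 is a serine/threonine kinase that binds the active forms of the small GTPases Rac and Cdc42 and acts on the cytoskeleton, on MAP kinase signaling and in the nucleus. Ionizing radiation breaks DNA, the kinases Atm and Chek2 then stabilise the transcription factor p53, and p53 switches on genes of cell cycle arrest, repair, metabolism and apoptosis, together with Mdm2, the ubiquitin ligase that returns p53 to a low level. The large T antigen of SV40 binds p53 and the retinoblastoma protein, so all 4 groups carry a viral protein that acts on this pathway.

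Each array gave a log2 value for 16755 probe sets, of which 14996 carried 1 gene symbol, each given by the authors as a distance from that probe set's median in the 12 samples. A value therefore says how far a sample lies above or below that median and not how abundant the RNA is. A probe set was called where it differed at least 2-fold and limma's Benjamini-Hochberg adjusted p was below 0.05. Of the 14996 probe sets of 1 symbol, 449 were called higher in KO-IR than in WT-IR cells (2.99%) and 319 were called lower (2.13%), 768 in all (5.12%, beside 5.06% of all 16755 probe sets). With the adjusted p alone, 3623 were higher (24.2%) and 3237 were lower (21.6%), so a small but measurable difference was common across the array. Arrays of the same group correlated at 0.836 to 0.917 across probe sets, on average per array. The labels call the replicates biological, without saying whether they were separate cultures. Each p therefore reflects the variation among these samples alone, with a precision limited by 3 arrays per group.

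No value of Pak1 was analysed here, and the genotypes are those of the labels. Among its relatives, Pak2 had log2 values of 0.33, 0.36 and 0.39 in the KO-IR arrays, against -0.16, -0.15 and -0.14 in the WT-IR arrays. The groups did not overlap, and the log2 fold change of 0.51 (limma, adjusted p = 1.78e-07) was under the 2-fold threshold. Such non-overlap was common on these arrays. Of the 14996 probe sets of 1 symbol, 4198 had every KO-IR value above every WT-IR value, and 3740 had every KO-IR value below. Pak3 moved the other way, at -0.77 (limma, adjusted p = 9.35e-07), while Pak4 at -0.10 and Pak7 at 0.00 did not pass the adjusted p. Of the 23 measured members of the Pak family and its partners, 0 were called higher and 2 were called lower (8.70%, beside 2.13% of all). The first was Elmo1, a scaffold that works with Dock proteins to activate Rac, at -1.23, -1.29 and -1.30 in KO-IR against 1.55, 1.45 and 1.36 in WT-IR, a log2 fold change of -2.73 (limma, adjusted p = 9.14e-12). The second was Arhgef7, the exchange factor also known as beta-Pix that binds Pak kinases directly, with a log2 fold change of -1.36 (limma, adjusted p = 1.69e-11).

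Many genes that p53 is known to switch on were higher in the irradiated Pak1-KO cells. Of 57 measured targets, 24 were called higher (42.1%, beside 2.99% of all probe sets of 1 symbol) and 1 was called lower, and the median log2 fold change over the list was 0.68, beside 0.01 over all. At the adjusted p alone, 42 were higher, 7 were lower and 8 did not pass. Part of this difference was present without irradiation. Between KO and WT the median of the list was 0.37, with 10 called higher and 1 lower, beside 371 and 304 of all 14996 probe sets of 1 symbol. The list was drawn up with earlier results of these samples known, so its count is a description and not independent evidence of its direction.

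Promoter sequences of called targets that held a match to the p53 response element are shown first, because p53 acts on its targets by binding DNA. The RefSeq promoter windows of build GRCm38.p6, 250 bases before to 50 bases after each listed start, were searched on both strands for the p53 response element, taken as a pair of half-sites of 10 bases without a spacer, with the C and the G of each core fixed and at most 3 of the 20 positions off the consensus. A match was present in 1.38% of all 32851 windows and in 11 of 72 windows (15.3%) of the measured p53 targets, which belong to 10 of the 50 targets that have a window. Capitals mark the matched 20 bases in the following stretches, 1 match in each. The Cdkn1a match lay on the plus strand within chr17:29090888-29090978 and differed from the consensus at 1 position, the Gtse1 match on the plus strand within chr15:85859940-85859969 also at 1, the Cd80 match on the plus strand within chr16:38458782-38458881 at 2, and the Ccng1 match, from a gene on the minus strand, within chr11:40755422-40755521 at 1.
Cdkn1a: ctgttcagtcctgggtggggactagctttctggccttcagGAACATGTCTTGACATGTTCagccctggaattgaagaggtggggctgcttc
Gtse1: accggGAGCAAGTTGGGGCTTGCCTctgac
Cd80: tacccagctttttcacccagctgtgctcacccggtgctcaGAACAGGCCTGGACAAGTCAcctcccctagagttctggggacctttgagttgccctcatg
Ccng1: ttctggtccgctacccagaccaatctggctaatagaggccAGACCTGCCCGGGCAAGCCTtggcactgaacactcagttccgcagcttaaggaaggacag
Aen, Bbc3, Ckap2, Rps27l, Sesn1 and Tigar also had a match, and none of these 6 was called, with log2 fold changes between -0.63 for Tigar and 0.83 for Ckap2. Trp53inp1, Btg2, Perp, Pmaip1 and Mdm2 had larger log2 fold changes than Ccng1 but were not among the 10 targets with a match. A match is only a run of letters in a window and does not show that p53 was bound there in these cells.

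Cdkn1a encodes p21, the inhibitor of cyclin-dependent kinases through which p53 halts the cell cycle. Its log2 values were 3.21, 3.24 and 3.37 in KO-IR arrays, against -1.34, -1.62 and -1.59 in WT-IR arrays. All KO-IR arrays stood above all WT-IR arrays, by a log2 fold change of 4.79 (27.6-fold, SE 0.09, limma adjusted p = 2.78e-12). The unirradiated groups also differed, with values from 1.34 to 1.62 in KO and from -1.77 to -1.55 in WT. The log2 fold change was 3.15 there, and the difference between both contrasts, the interaction of genotype and irradiation, was 1.64 (SE 0.13, limma adjusted p = 3.73e-05). The KO-IR arrays lay above the KO arrays, whereas the WT-IR and WT arrays overlapped. Quantile normalization, which gives all arrays the same distribution of values, lowered the log2 fold change of Cdkn1a to 3.84 and its interaction to 0.95, under 2-fold.

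Btg2, an antiproliferative cofactor of mRNA deadenylation, showed the same order of groups with the largest interaction of all probe sets of 1 symbol. Its values were 3.33, 3.29 and 3.24 in KO-IR against -0.81, -0.72 and -0.76 in WT-IR, a log2 fold change of 4.05 (16.6-fold, limma adjusted p = 1.48e-13). Without irradiation the log2 fold change was 1.60, and the interaction was 2.45 (SE 0.07, limma adjusted p = 1.20e-08). Trp53inp1, a nuclear protein that promotes the activity of p53, had values of 3.20, 3.35 and 3.22 in KO-IR, against -1.19, -1.51 and -1.33 in WT-IR. Its log2 fold change was 4.60 with irradiation and 2.80 without, with an interaction of 1.80 (limma adjusted p = 7.04e-06). Mdm2, which both answers to p53 and limits it, was at 1.92, 2.02 and 2.04 in KO-IR and at -0.53, -0.64 and -0.68 in WT-IR. The groups did not overlap, the log2 fold change was 2.61 (limma adjusted p = 9.69e-12), and the interaction was 1.35 (limma adjusted p = 6.66e-06), or 0.88 after quantile normalization.

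**Figure D1:**
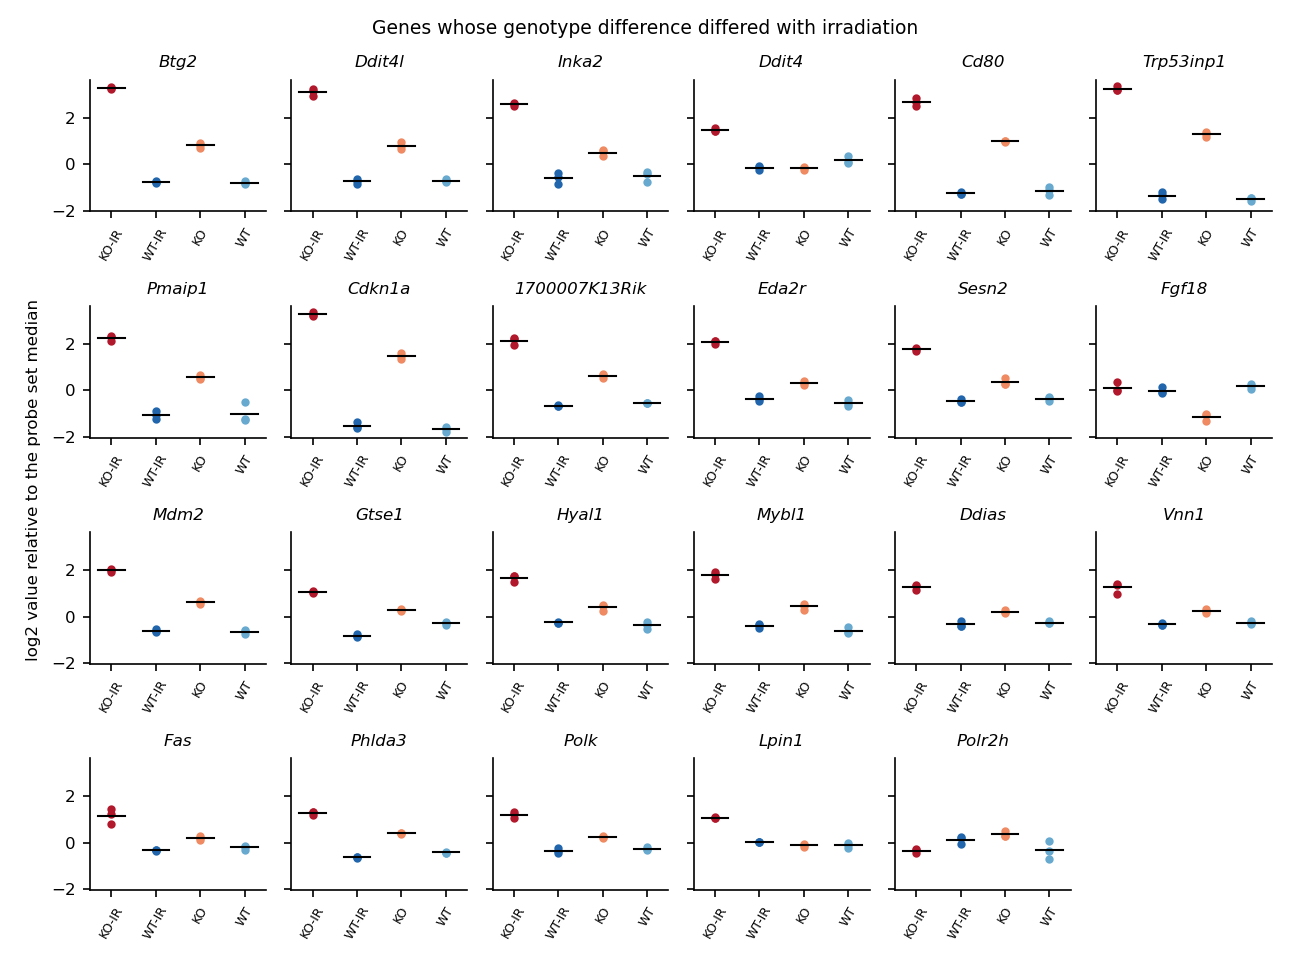
Log2 values, relative to each probe set's median, of the 23 genes called in the interaction of genotype and irradiation. Each point is 1 of 3 arrays in the KO-IR, WT-IR, KO and WT groups and each bar is the group mean; in Cdkn1a the KO-IR arrays stand at 3.21 to 3.37, above those of every other group.

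Targets that act in cell death were higher in KO-IR than in WT-IR cells as well. Pmaip1, the BH3-only protein Noxa, had values of 2.35, 2.29 and 2.11 in KO-IR, against -0.89, -1.23 and -1.05 in WT-IR. The log2 fold change was 3.31 (limma adjusted p = 9.85e-09) and the interaction 1.73 (SE 0.24, limma adjusted p = 0.00271), with WT replicate 2 at -0.51 against -1.23 and -1.27 in the other WT arrays. Tnfrsf10b, a receptor for the death ligand Trail, had a log2 fold change of 2.55 (limma adjusted p = 6.36e-10), and of 1.94 without irradiation. Its interaction of 0.61 did not pass the threshold (limma adjusted p = 0.0522). Fas, the receptor of Fas ligand, was at 0.81, 1.44 and 1.22 in KO-IR and at -0.30, -0.31 and -0.34 in WT-IR, so the KO-IR arrays were spread widely but lay above all WT-IR arrays. Its log2 fold change was 1.47 (limma adjusted p = 6.70e-07) and its interaction 1.08 (limma adjusted p = 0.00792). Apaf1, the core of the apoptosome, was higher by 1.42 and Perp, a membrane protein of desmosomes, by 3.46 on the log2 scale. Without irradiation Apaf1 differed by 0.94 and Perp by 3.09, and the interaction of Perp, 0.38, did not pass (limma adjusted p = 0.255). Bbc3, the BH3-only protein Puma, was higher by only 0.23 (limma adjusted p = 0.00947). Over all 33 regulators of apoptosis 7 were called higher (21.2%, beside 2.99% of all), among them Birc3, an inhibitor of apoptosis (1.14), the inflammatory caspase Casp4 (1.05) and Cflar, which blocks caspase 8 (1.01), and 2 were called lower (6.06%, beside 2.13%), Casp12 (-1.20) and the mitochondrial protease Htra2 (-1.04). Of 8 necroptosis genes only Ripk3 was called (12.5%, beside 2.99% of all called higher).

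A further set of targets acts on growth signaling through mTORC1 and Akt. Sesn2, a sestrin that restrains mTORC1, had values of 1.68, 1.84 and 1.77 in KO-IR, against -0.38, -0.51 and -0.50 in WT-IR, a log2 fold change of 2.23 (limma adjusted p = 4.96e-10) with an interaction of 1.51. Ddit4, also known as Redd1 and another inhibitor of mTORC1, had values of 1.56, 1.44 and 1.44 in KO-IR and of -0.25, -0.07 and -0.10 in WT-IR. Here the 2 genotype contrasts ran in opposite directions, with a log2 fold change of 1.62 in irradiated cells (limma adjusted p = 7.33e-09) and of -0.34 in unirradiated cells (limma adjusted p = 0.00338), and the interaction was 1.96 (limma adjusted p = 3.94e-06). Its relative Ddit4l, which is not in the p53 target list, had values of 2.95, 3.16 and 3.24 in KO-IR against -0.71, -0.65 and -0.83 in WT-IR. The log2 fold change was 3.84 (14.3-fold, limma adjusted p = 1.06e-11) and the interaction 2.34. Phlda3, a pleckstrin homology protein that competes with Akt for membrane lipids, was higher by 1.90 on the log2 scale with an interaction of 1.07 (limma adjusted p = 2.59e-06).

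Other targets with an interaction were Eda2r, a receptor of the tumor necrosis factor family (log2 fold change 2.44, interaction 1.57), Gtse1, a microtubule protein that moves p53 out of the nucleus (1.87 and 1.30), Polk, a DNA polymerase that copies past damaged bases (1.56 and 1.05), and Cd80, a ligand that costimulates T cells. Cd80 had values of 2.51, 2.84 and 2.69 in KO-IR, against -1.29, -1.20 and -1.27 in WT-IR, a log2 fold change of 3.93 (15.2-fold, limma adjusted p = 1.03e-11) and an interaction of 1.81 (limma adjusted p = 1.54e-05). Not every target followed. Ccng1, a cyclin whose promoter match is printed above, was higher by 1.61, and its interaction of 0.36 did not pass (limma adjusted p = 0.144). Steap3, a metalloreductase of iron uptake, was the 1 target called lower, at -0.61, -0.60 and -0.40 in KO-IR against 0.53, 0.50 and 0.52 in WT-IR. Its log2 fold change was -1.05 with irradiation and -1.10 without. Epha2 was called from its first probe set, with a log2 fold change of 1.44, while its second gave 0.52.

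Over the whole array the interaction was rare. Of the 14996 probe sets of 1 symbol, 22 were called higher (0.147%) and 1 was called lower (0.153% in all), so nearly all called interactions ran upward. After quantile normalization 13 of these 23 kept the call, and Cdkn1a, Mdm2, Phlda3, Fas, Polk, Mybl1, Hyal1, Ddias, Vnn1 and Lpin1 passed the adjusted p but fell under 2-fold. Of the 22, 13 belong to the p53 target list and 9 do not. With the adjusted p alone, 185 passed higher (1.23%) and 32 lower (0.213%), and 29 of the 57 p53 targets passed, all 29 higher. The change from KO to KO-IR, which uses the same KO-IR arrays, passed the adjusted p upward for all 22 (beside 3.49% of the probe sets of 1 symbol), and the change from WT to WT-IR passed it for 2 of the 23, both downward (beside 1.71%). The WT-IR values of those 2, Gtse1 and Phlda3, were below the WT values, by a log2 fold change of -0.52 (limma adjusted p = 0.00017) for Gtse1 and of -0.21 (limma adjusted p = 0.022) for Phlda3. Between WT-IR and WT as a whole, 1 probe set of 1 symbol was called (0.00667%), and between KO-IR and KO 22 were (0.147%), all higher.

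Among the 9 genes outside the target list, Inka2 had values of 2.52, 2.60 and 2.62 in KO-IR, against -0.83, -0.37 and -0.53 in WT-IR. It is a relative of Inka1, a protein that inhibits Pak4, and its log2 fold change of 3.16 (8.91-fold, limma adjusted p = 1.20e-09) came with an interaction of 2.15 (SE 0.18, limma adjusted p = 6.23e-05). 1700007K13Rik had a log2 fold change of 2.79 and an interaction of 1.61. Mybl1, a transcription factor of the Myb family, was higher by 2.18 with an interaction of 1.15, and Hyal1, a hyaluronidase, by 1.93 with 1.16. Ddias, a suppressor of damage-induced apoptosis, and Vnn1, a pantetheinase, were both higher by 1.59, with interactions of 1.11 and 1.09. Lpin1, a phosphatidate phosphatase of lipid synthesis, had a log2 fold change of 0.00 in unirradiated cells (limma adjusted p = 0.984) but stood apart after irradiation, at 1.10, 1.05 and 1.06 in KO-IR against 0.01, 0.04 and 0.03 in WT-IR, a log2 fold change of 1.04 with an interaction of 1.04 (limma adjusted p = 2.66e-05). Fgf18, a fibroblast growth factor, was the 1 higher call of the interaction that was not called between KO-IR and WT-IR (log2 fold change 0.13, limma adjusted p = 0.413). Its unirradiated KO arrays stood low, at -1.03, -1.05 and -1.29, against 0.28, 0.04 and 0.19 in WT. The 1 lower call was Polr2h, a subunit shared by the nuclear RNA polymerases, with an interaction of -1.15 (limma adjusted p = 0.0223) that its second probe set, at 0.16, did not show and that lost the adjusted p without any 1 of 6 arrays: KO replicate 1 (0.0731), KO-IR replicate 2 (0.0532), KO-IR replicate 3 (0.0556), WT replicate 1 (0.0629), WT-IR replicate 1 (0.0696) or WT-IR replicate 2 (0.0772).

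**Figure D2:**
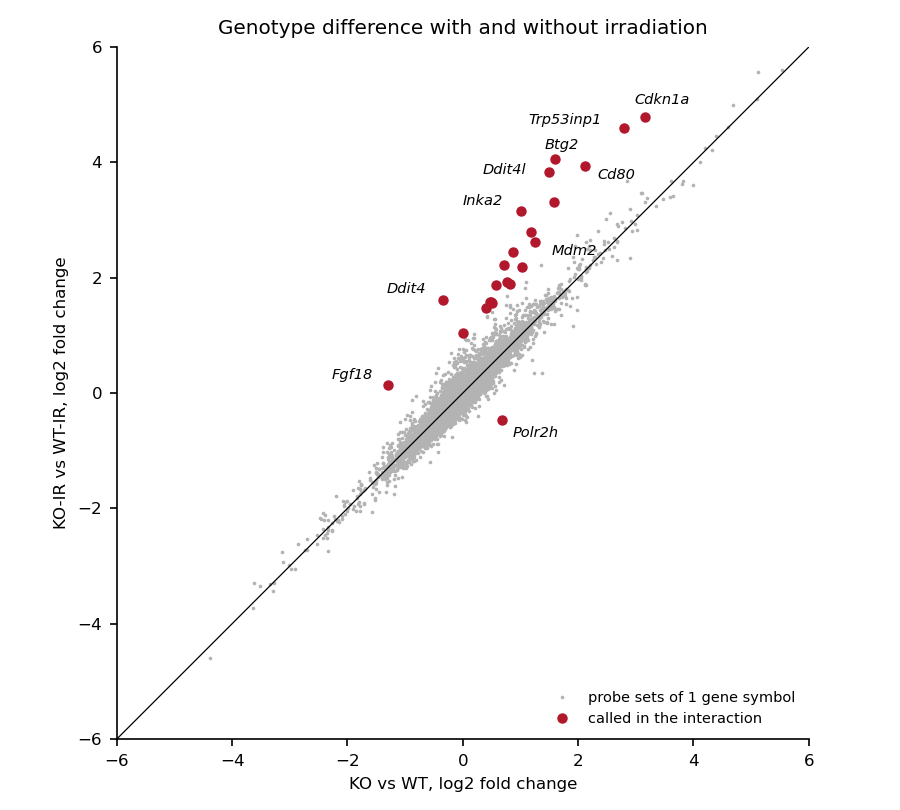
Log2 fold change of KO-IR over WT-IR (vertical axis) against that of KO over WT (horizontal axis), each grey point 1 probe set of 1 gene symbol and the line marking equal values. The red points are the 23 genes called in the interaction, of which 22 lie above the line and Polr2h lies below it.

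Most of the genotype difference was shared with unirradiated cells, which were measured on other arrays. Of the 768 calls between KO-IR and WT-IR, 599 were also called between KO and WT in the same direction, 78.0% of the irradiated calls and 88.7% of the 675 unirradiated calls (4.50% of the probe sets), and 0 were called in opposite directions. The other 169 were called in the irradiated contrast alone, 110 higher and 59 lower. Of these, 166 passed the adjusted p between KO and WT in the same direction, which 22.1% of all probe sets of 1 symbol did higher and 22.3% lower, but fell short of 2-fold. In the interaction 45 of the 169 passed the adjusted p, beside 1.23% higher and 0.213% lower of all, and 11 were called. The 169 were picked by the same 2 contrasts whose difference is the interaction. A larger share than that of all was therefore built in and is not separate evidence. Over all probe sets, 4.42% were called between KO and WT and 0.149% in the interaction.

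The largest differences of all were of this shared kind. Sgce, the imprinted gene of epsilon-sarcoglycan, had values of 2.76, 2.80 and 2.83 in KO-IR, against -2.73, -2.87 and -2.82 in WT-IR, a 48.6-fold difference (limma adjusted p = 3.17e-14). Its interaction was 0.08 (limma adjusted p = 0.773). Pdlim1, which ties PDZ and LIM domain partners to actin stress fibers, was at 2.41, 2.58 and 2.57 in KO-IR and at -2.84, -2.99 and -3.30 in WT-IR, a 47.3-fold difference. Ripk3, the kinase that sets off necroptosis, was at 2.54, 2.56 and 2.42 in KO-IR and at -2.53, -2.42 and -2.83 in WT-IR, a 34.3-fold difference, with a log2 fold change of 5.10 in irradiated and of 5.11 in unirradiated cells. The arrays of both groups lay on opposite sides of the median for all 3 genes. Gask1b, a Golgi-associated protein, was 31.7-fold higher, the LIM domain protein Fhl1 24.5-fold, the receptor for UDP-sugars P2ry14 22.0-fold, the imprinted adaptor Grb10, which restrains insulin receptor signaling, 18.9-fold, the acyltransferase Agpat2 18.6-fold, the Wnt receptor Fzd6 16.0-fold and the mitochondrial carbonic anhydrase Car5b 12.8-fold. In these 7 the interaction lay between -0.11 and 0.31, and none passed the adjusted p. After quantile normalization Sgce differed by 4.35 on the log2 scale instead of 5.60, and the 32 fold changes and interactions of named genes that this step moved by over 1.5 times all kept their direction.

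Among the genes that were lower in KO-IR cells, Rps6ka6, a kinase of the ribosomal S6 kinase family, had values of -2.14, -2.21 and -2.20 in KO-IR, against 2.53, 2.32 and 2.37 in WT-IR. This was 24.1-fold lower (limma adjusted p = 2.60e-13). Igfbp3, which binds insulin-like growth factors, was at -1.82, -1.75 and -1.84 in KO-IR and at 1.95, 1.84 and 2.01 in WT-IR, 13.3-fold lower. Tgfbi, a matrix protein induced by TGF-beta, was 10.8-fold lower, the hyaluronan synthase Has2 10.2-fold, the transcription factor Sox2 9.81-fold and the secreted factor Tafa5 9.80-fold. Thbd, the ceramide synthase Cers4, Gsta4, Bdkrb1 (a bradykinin receptor), Vmn1r43 (a vomeronasal receptor), Gnao1 (a G protein subunit) and Pdgfra (a receptor for platelet-derived growth factors) were 6.57- to 8.33-fold lower. Pdgfra was the 1 gene among the 15 highest and 15 lowest, outside the p53 targets and Ddit4l, whose interaction passed the adjusted p. It stood at -1.34, -1.30 and -1.20 in KO-IR against 1.41, 1.52 and 1.44 in WT-IR, and the interaction was -0.40 (limma adjusted p = 0.0196).

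**Figure D3:**
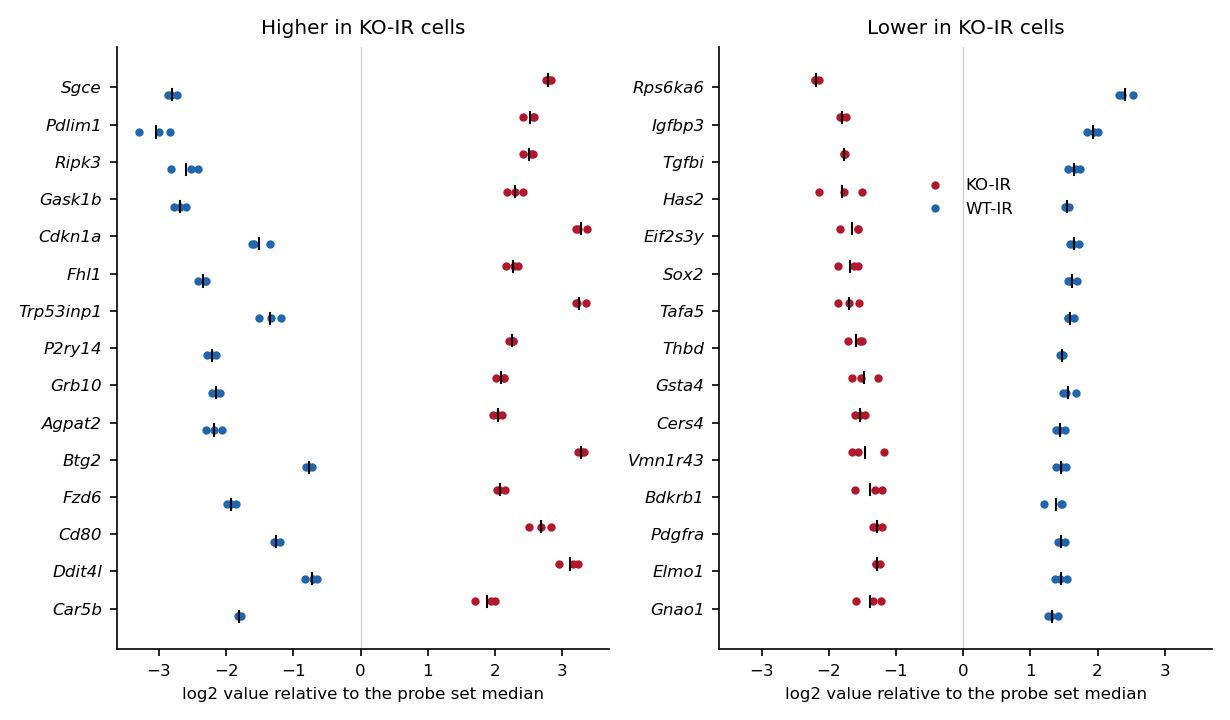
Log2 values of the 15 higher and 15 lower genes with the largest fold change between KO-IR and WT-IR, each point 1 array and each bar the mean of 3 arrays. The genes were chosen among those whose groups do not overlap. The widest gap is that of Sgce, with KO-IR at 2.76 to 2.83 and WT-IR at -2.87 to -2.73.

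Regulators of p53 and genes of DNA repair had more members lower than higher at the adjusted p. Of 17 measured p53 family members and regulators, 3 were higher and 7 lower, 0 were called higher and 2 were called lower (11.8%, beside 2.13% of all), Ing1 (log2 fold change -1.39), a reader of histone marks, and Bccip (-1.19), a partner of Brca2 and p21. The damage kinase Atm was at -0.36 and Mdm4, the partner of Mdm2, at 0.70, while Chek2 at 0.05 and Chek1 at -0.10 were close to 0. Of 48 DNA repair genes, 12 were higher and 22 lower at the adjusted p, and 1 was called in each direction (2.08% each, beside 2.99% higher and 2.13% lower of all). These were Fanca, of the Fanconi anemia core complex, at 1.19, and Lig4, the ligase of non-homologous end joining. Lig4 had values of -0.91, -1.34 and -0.86 in KO-IR, against 0.89, 0.92 and 0.86 in WT-IR, a log2 fold change of -1.93 (limma adjusted p = 1.06e-08) with -1.95 in unirradiated cells.

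Of the genes of DNA replication and mitosis none reached a call, beside 5.12% of all probe sets of 1 symbol. Of 36 DNA replication genes, 7 were higher and 19 lower at the adjusted p, beside 24.2% and 21.6% of all, with a median log2 fold change of -0.15. Of 35 mitosis genes, 10 were higher and 10 lower, with a median of -0.02. Among 31 cyclins and inhibitors, 3 were called higher (9.68%, beside 2.99% of all), namely Cdkn1a, Rb1 (1.10) and Ccnb2 (1.05), and 1 was called lower (3.23%, beside 2.13%), Myc, the transcription factor that drives growth genes. Myc was at -0.75, -0.70 and -0.54 in KO-IR and at 0.43, 0.42 and 0.47 in WT-IR, a log2 fold change of -1.10 (limma adjusted p = 3.82e-09). After quantile normalization only Cdkn1a remained called higher in this list.

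Genes that build ribosomes were lower throughout. Of 40 measured, 39 were lower at the adjusted p, 0 were higher and 11 were called lower (27.5%, beside 2.13% of all), with a median log2 fold change of -0.74, and of -0.66 in unirradiated cells. Heatr1, a factor of rRNA transcription and processing, had values of -0.72, -0.83 and -0.81 in KO-IR, against 1.09, 1.10 and 0.92 in WT-IR. The log2 fold change was -1.83 (limma adjusted p = 2.26e-10). Polr1a and Polr1b, the large subunits of RNA polymerase I, were at -1.26 and -1.42, the nucleolar protein Rrp1b at -1.48, the rRNA methyltransferase Nop2 at -1.31 and the processing factor Pes1 at -1.11. None of the 40 passed the adjusted p of the interaction. The E-box CACGTG, a sequence that Myc and related factors bind, occurred in 7.15% of all promoter windows on either strand and in 7 of 44 windows of the list (15.9%), 1 of them that of Nop2, shown with the motif in capitals from chr6:125131783-125131868 (plus strand).
Nop2: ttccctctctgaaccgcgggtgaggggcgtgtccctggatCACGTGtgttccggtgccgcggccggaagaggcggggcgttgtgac

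Many interferon-stimulated genes were higher. Of 34 measured, 24 were higher and 3 lower at the adjusted p and 9 were called higher (26.5%, beside 2.99% of all), with a median log2 fold change of 0.50, and of 0.52 between KO and WT. Cxcl10, a chemokine that draws activated T cells, was at 2.43, 2.48 and 2.47 in KO-IR, against -1.07, -1.28 and -1.27 in WT-IR. Its log2 fold change of 3.67 (12.7-fold, limma adjusted p = 9.45e-12) was larger than the 2.84 of unirradiated cells, with an interaction of 0.83 (limma adjusted p = 0.00333), the 1 member of the list to pass that test. Trim25, the ubiquitin ligase that activates the RNA sensor Rig-I, was at 1.31, 1.20 and 1.04 in KO-IR and at -1.20, -1.19 and -1.15 in WT-IR. Ifit1, which binds foreign RNA ends, was at 1.01, 1.91 and 1.27 in KO-IR and at -0.36, -0.72 and -0.51 in WT-IR, and despite this wide spread its groups did not overlap (log2 fold change 1.93, limma adjusted p = 4.17e-06). The GTPase Irgm1 was higher by 1.88, Parp14 by 1.65, the RNA sensor Ifih1 by 1.43 and the virus tether Bst2 by 1.17 on the log2 scale. Without irradiation these 4 genes differed by 2.14, 1.66, 1.59 and 1.13.

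The promoters of several of these genes hold 2 copies of GAAA set 2 bases apart, the core of the interferon-stimulated response element. On either strand this was in 3.44% of all windows and in 10 of 31 windows of the list (32.3%). The p53 response element was in 0 of these 31, beside 1.38% of all windows, a share at which so few windows could well hold none. The stretches are from chr5:92349053-92349139 for Cxcl10 and chr11:48871421-48871490 for Irgm1, both genes on the minus strand, and from chr19:34640745-34640834 for Ifit1 on the plus strand, printed 5′ to 3′ along the gene with matches on either strand in capitals, 2 separate ones in Ifit1 and 2 overlapping ones in Irgm1.
Cxcl10: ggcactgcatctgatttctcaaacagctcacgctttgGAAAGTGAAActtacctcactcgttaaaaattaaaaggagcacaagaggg
Ifit1: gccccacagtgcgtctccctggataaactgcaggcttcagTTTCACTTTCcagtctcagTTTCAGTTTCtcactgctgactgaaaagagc
Irgm1: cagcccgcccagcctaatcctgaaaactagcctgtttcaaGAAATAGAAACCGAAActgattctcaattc

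Immediate early genes are transcribed within minutes of a stimulus, and their list here also holds MAP kinase phosphatases. Of its 33 measured members, 4 were called higher (12.1%, beside 2.99% of all) and 2 were called lower (6.06%, beside 2.13%). Jun, a subunit of the AP-1 factor, was at 0.65, 0.85 and 0.73 in KO-IR, against -0.77, -0.81 and -0.78 in WT-IR. Its log2 fold change was 1.53 (limma adjusted p = 7.95e-10), with 0.75 in unirradiated cells and an interaction of 0.78 (limma adjusted p = 0.000478). From WT to WT-IR Jun changed by -0.43 (limma adjusted p = 0.00393), and from KO to KO-IR by 0.35 (limma adjusted p = 0.00373). Dusp1, a phosphatase that switches off MAP kinases, was at 1.01, 1.16 and 1.15 in KO-IR and at -0.62, -0.76 and -0.75 in WT-IR, with a log2 fold change of 1.82 and an interaction of 0.73 (limma adjusted p = 0.00156). Both genes were higher in every KO-IR array than in any WT-IR array. In all, 7 of the 33 passed the adjusted p of the interaction, all 7 higher (beside 1.23% of all), and Atf3, a stress-induced partner of Jun, differed by 0.93 in irradiated and by 0.06 in unirradiated cells. Ier2 (-1.28) and the kinase Sgk1 (-1.19) were lower.

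**Figure D4:**
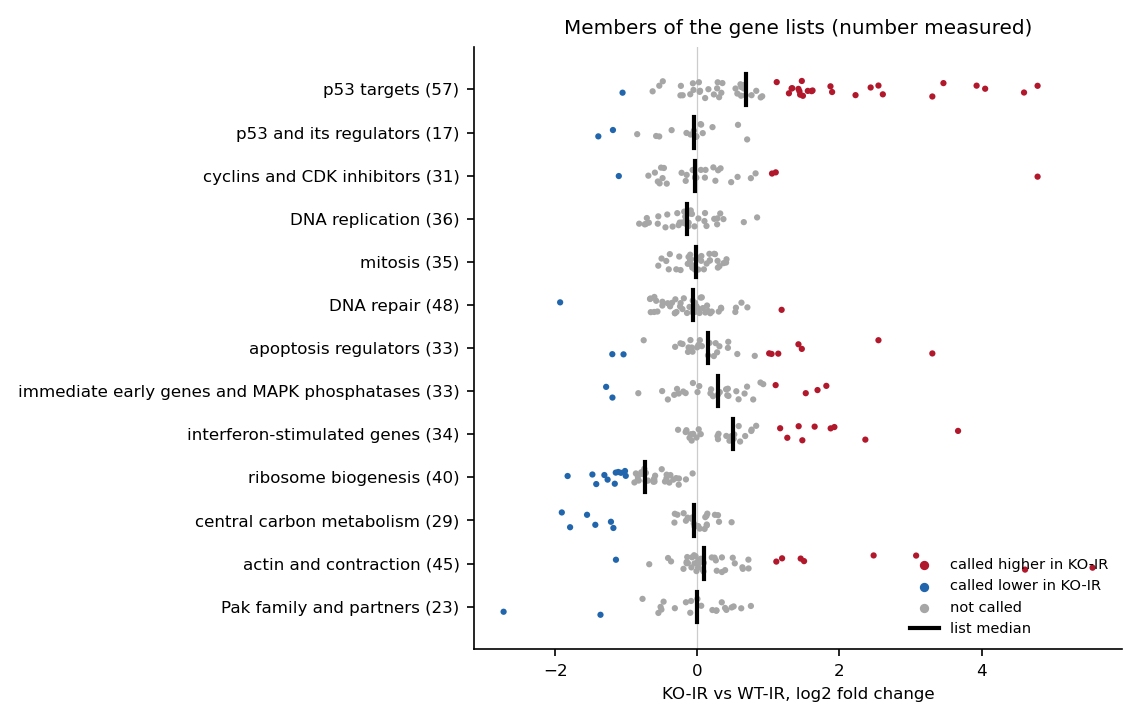
Log2 fold change of KO-IR over WT-IR for each measured member of 13 gene lists, with called members in red (higher) or blue (lower), others in grey and the list median as a bar. The p53 targets have a median of 0.68 and ribosome biogenesis genes of -0.74, while DNA replication, mitosis and repair genes have medians of -0.15, -0.02 and -0.07.

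Genes of the cytoskeleton and the extracellular matrix were called in both directions. Of 45 genes of actin and contraction, 8 were called higher (17.8%, beside 2.99% of all) and 1 lower (2.22%, beside 2.13%). Besides Pdlim1 and Fhl1 these included smooth muscle actin Acta2, at 1.47, 1.60 and 1.55 in KO-IR and -1.53, -1.49 and -1.60 in WT-IR (log2 fold change 3.08, limma adjusted p = 3.24e-13), and Tagln, the smooth muscle protein transgelin (2.48). The member called lower was Nf2 (-1.14), which encodes merlin, a known substrate of Pak kinases. None of the 45 passed the adjusted p of the interaction. Among 44 matrix genes, 7 were called higher (15.9%), led by the lysyl oxidase relative Loxl2 (2.86) and the basement membrane linker Nid1 (2.11). Another 6 were called lower (13.6%), led by Tgfbi (-3.43), Has2 (-3.35) and Thbs2 (-2.61). Of 47 growth factors and receptors 7 were called higher and 6 lower, and of 39 chemokines and cytokines 4 were called higher and 7 lower. The shares were 14.9% and 12.8% for growth factors and 10.3% and 17.9% for chemokines, beside 2.99% higher and 2.13% lower of all. Among the chemokines Cxcl10 (3.67) and Cxcl16 (2.37) were higher, whereas Cxcl1 (-2.53), Cxcl5 (-2.07) and Cxcl12 (-1.15) were lower. Of 29 genes of central carbon metabolism 0 were called higher and 6 lower (20.7%, beside 2.13%). Among the 6 were hexokinase 2 (Hk2, -1.91), the oxygen sensor Egln3 (-1.79) and pyruvate dehydrogenase kinase 1 (Pdk1, -1.44).

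Genes that guide axons and pattern the embryo also differed, in both directions. Of 38 guidance genes, 5 were called higher (13.2%, beside 2.99% of all) and 2 lower (5.26%, beside 2.13%). Sema3c, a secreted semaphorin, was at 1.79, 1.82 and 1.77 in KO-IR, against -1.77, -1.95 and -1.92 in WT-IR, a 12.8-fold difference (limma adjusted p = 2.30e-13), and the related Sema3a differed by 3.41 on the log2 scale. Neither overlapped between the groups, as held for 4198 higher probe sets of the 14996, and their interactions of -0.15 and -0.23 did not pass. Of 39 genes of Wnt and Notch signaling 3 were called higher and 3 lower (7.69% each). Above were Fzd6, the receptor Notch1 (1.65) and its target Hes1 (1.18). Below were the Wnt antagonist Dact1 (-1.75), the ligand Wnt10b (-1.58) and the Notch ligand Jag1 (-1.12). Notch1 was at 0.98, 0.97 and 1.06 in KO-IR and at -0.68, -0.67 and -0.60 in WT-IR, and its interaction of 0.55 passed the adjusted p (limma, 0.000354). Among 32 Hox genes, the transcription factors that set position along the body axis, 4 were called higher (12.5%) and 3 lower (9.38%). Members of the same cluster ran in opposite directions, with Hoxc10 at 2.15 and Hoxc5 at -2.19. Of 19 imprinted genes, which are read from 1 parental copy, 21.1% were called higher and 10.5% lower. These were Sgce, Grb10, Plagl1 (1.51) and Ndn (1.01) above and Slc38a4 (-1.25) and Peg3 (-1.04) below.

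Of 26 collagens 4 were called higher (15.4%, beside 2.99% of all), led by Col8a1 (1.39), and 3 lower (11.5%, beside 2.13%), led by Col4a6 (-2.04). Of 18 integrins and laminins only Itga6, the laminin receptor subunit, was called (5.56%, near the 5.12% of all called in either direction). Itga6 was at 1.53, 1.83 and 1.89 in KO-IR against -1.50, -1.52 and -1.65 in WT-IR. Of 11 sarcoglycan and dystrophin complex genes only Sgce was called (9.09%). Of 31 genes of glutathione, antioxidants and metallothioneins, 2 were called higher (6.45%) and 3 lower (9.68%). The metal-binding Mt2 (2.34) and the quinone reductase Nqo1 (1.65) were higher. The glutathione transferases Gsta4 (-3.04) and Mgst1 (-2.46) and the peroxiredoxin Prdx2 (-1.31) were lower. Of 16 antigen presentation genes Cd80 and Tap1, the peptide transporter, were called higher (12.5%). The interaction of Tap1 was 0.71 (limma adjusted p = 0.00621). Of 10 histone genes 0 were called, with 2 higher and 2 lower at the adjusted p, near the 24.2% and 21.6% of all.

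The labelled cell type was checked on its markers, as differences between genotypes, since the centred values hold no level. Of 13 fibroblast markers, 1 was called higher (Thy1, 1.32) and 3 lower (Pdgfra, -2.74; Prrx1, -2.12; Col3a1, -1.33), while vimentin was at -0.03 (limma adjusted p = 0.442). Markers of other cell types were called as follows, beside 5.12% of all probe sets of 1 symbol called in either direction: 0 of 11 endothelial markers were called, 1 of 11 epithelial markers was (Krt19, 2.97, with Cdh1 at -0.02), 1 of 11 macrophage markers was (Csf1r, -2.37), 1 of 10 skeletal muscle markers was (Pax3, 1.17), and 3 of 10 neural and Schwann cell markers were (Erbb3, 1.77; Nes, 1.69; Sox2, -3.29). Of 6 mesothelial markers, Krt19 and Msln (1.00) were called higher, Msln at the threshold. Their part in the other differences was not tested, and fewer cells of a type and less RNA per cell cannot be told apart in such samples.

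The position of a gene, which the comparison did not use, was uneven among the calls. Chromosome 8 had the largest share of calls among the autosomes and chromosome X, 11.6% of 757 probe sets (38 higher and 50 lower), followed by X with 8.88% of 473 (32 higher and 10 lower), and chromosome 7 had the smallest, 2.29% of 1225. Both measured genes of the Y-linked list were lower. Eif2s3y, a translation initiation factor subunit, was at -1.84, -1.56 and -1.57 in KO-IR against 1.72, 1.60 and 1.63 in WT-IR, and Kdm5d, a histone demethylase, was at -0.98, -0.91 and -1.02 in KO-IR against 1.16, 1.18 and 1.04 in WT-IR. Neither overlapped between the groups, and both were lower by as much between KO and WT. A difference in sex between the embryos of each genotype therefore cannot be told apart from the genotype, and its part in the X-linked and other calls was not tested.

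Of the 50 lower calls on chromosome 8, 14 lay close together in 1 run and 36 lay elsewhere. In map order, windows of 10 neighbouring measured genes held 5 or more lower calls 12 times on chromosome 8 and 0 times on any other chromosome, and no window anywhere held 5 or more higher calls. The run from Prr36 to Tubgcp3 has 31 measured genes, of which 14 were called lower and 2 higher, with a median log2 fold change of -0.94. Its lower genes included Cers4 (-2.98), Ctxn1 (-2.11), Lig4 (-1.93), Ankrd10 (-1.66), Timm44 (-1.46), Arglu1 (-1.42), Ing1 (-1.39), Arhgef7 (-1.36) and Tubgcp3 (-1.28), which differ widely in function. The 2 higher genes, Col4a1 (1.13) and Col4a2 (1.25), are neighbouring collagen genes. Unirradiated cells showed the same run, with Lig4 at -1.95, Ing1 at -1.39 and Arhgef7 at -1.32. Lig4, Ing1 and Arhgef7, described above with the repair, p53 and Pak lists, all lie in this run. The 10 measured genes on either side of Pak1 on chromosome 7 held 0 calls, beside 2.29% of that chromosome's probe sets and 5.12% of all. At such shares so few genes would hold few calls in any region. Several passed the adjusted p in either direction, such as Gab2 at 0.97 and Myo7a at -0.60.

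**Figure D5:**
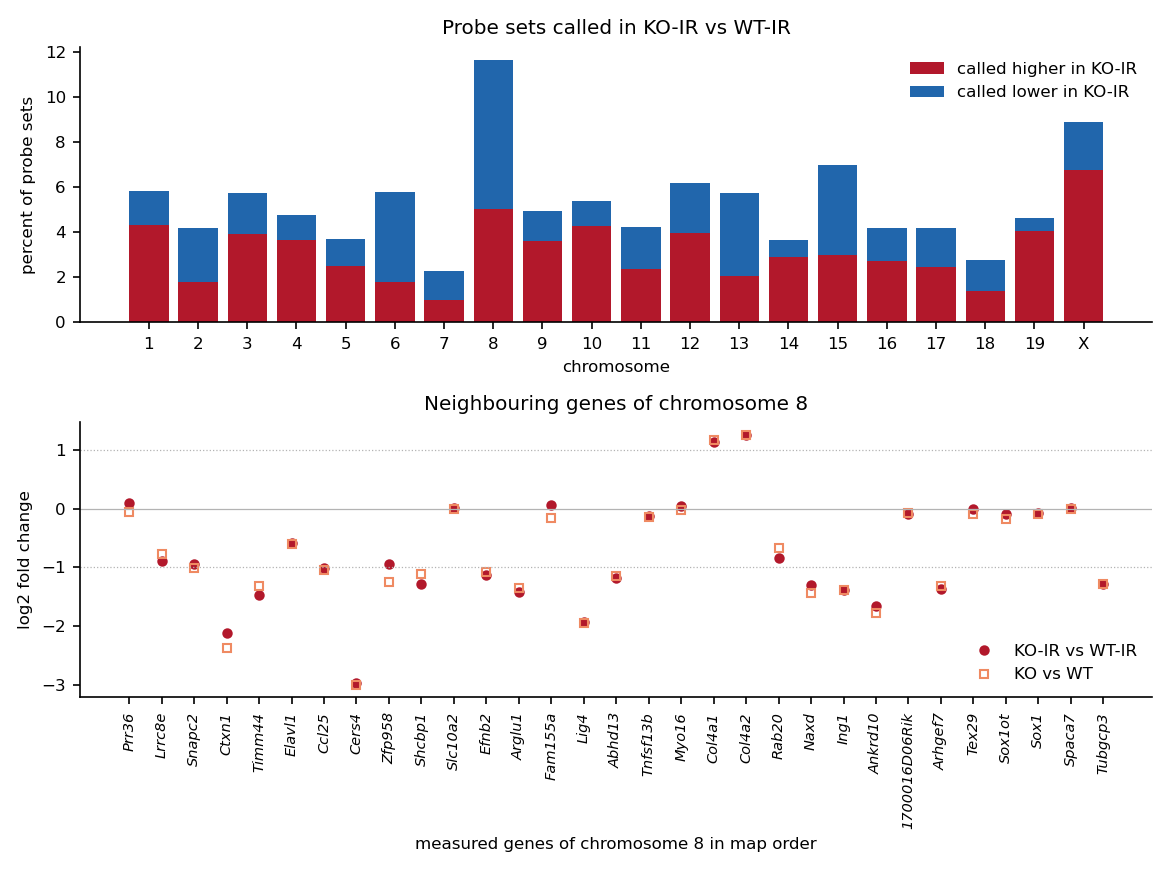
Top, percent of probe sets of 1 symbol called in KO-IR vs WT-IR on each chromosome (Y, with 3 probe sets, is left out), higher calls in red and lower calls in blue. Bottom, log2 fold change of the 31 neighbouring genes of chromosome 8 from Prr36 to Tubgcp3, in filled circles for KO-IR over WT-IR and open squares for KO over WT; the median of the filled circles is -0.94.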

How the data were processed

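Gene expression was measured on 12 Affymetrix Mouse Exon 1.0 ST arrays, 3 per group. The authors extracted RNA with TRIzol, reduced ribosomal RNA, labelled the cDNA and used Gene Spring GX 10.0.2 for normalization. The deposited values are on a log2 scale and are centred per probe set, with medians across all arrays within 5e-07 of 0. No absolute signal is left, so dim probe sets could not be filtered. The base of the log was taken from the paper's description of its heat maps.

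A linear model with a mean for each of the 4 groups was fitted to the 16755 probe sets with limma 3.58.1 under R 4.3.3 (lmFit, then eBayes), leaving 8 residual degrees of freedom beside a prior of 3.48. Contrasts were KO-IR vs WT-IR, KO vs WT, their difference (the interaction), WT-IR vs WT and KO-IR vs KO, each with its own Benjamini-Hochberg adjustment across the array. The fit was tested on simulated data. Alternatives were the t-test of the study's methods, the compared groups alone, robust eBayes, the replicate number as a block, quantile normalization, median centring, other fold thresholds, probe sets of 1 symbol only and leaving out each array. Probe sets with several symbols (1019) or none (740) were not named, and 14941 of 14996 symbols matched RefSeq GRCm38.p6, used for chromosomes and gene order only, and for promoter sequences. A gene with several probe sets stands in a list by the one with the lowest identifier.

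The comparison, the 35 gene lists and the tests were chosen with earlier results of these data known. Named genes were the 15 higher and 15 lower calls with the largest fold change and no overlap of arrays, up to 6 called members per list, up to 12 interaction calls in each direction, the Pak family, Y-linked genes, cell type markers and genes that the paper names for its irradiated comparison. Others, such as Polk, Lpin1, Hyal1, Ddias, Vnn1, Ccng1, Steap3, Perp, Atf3 and the neighbours on chromosome 8, were chosen after their values were seen. Figures were drawn with matplotlib 3.10.9.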

Additional observations from a re-analysis of the deposited data

Results flagged for a closer look

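The genotype difference of irradiated cells differed from that of unirradiated cells, by limma's interaction test over all 12 arrays, for 23 genes, 22 of them upward, with adjusted p-values from 1.20e-08 to 0.0223. The interaction on the log2 scale was 2.45 for Btg2, 2.34 for Ddit4l, 2.15 for Inka2, 1.96 for Ddit4, 1.81 for Cd80, 1.80 for Trp53inp1, 1.73 for Pmaip1 and 1.64 for Cdkn1a. It was 1.61 for 1700007K13Rik, 1.57 for Eda2r, 1.51 for Sesn2, 1.43 for Fgf18, 1.35 for Mdm2, 1.30 for Gtse1, 1.16 for Hyal1 and 1.15 for Mybl1. It was 1.11 for Ddias, 1.09 for Vnn1, 1.08 for Fas, 1.07 for Phlda3, 1.05 for Polk and 1.04 for Lpin1, and it was -1.15 for Polr2h. After quantile normalization Cdkn1a, Mdm2, Phlda3, Fas, Polk, Mybl1, Hyal1, Ddias, Vnn1 and Lpin1 still passed the adjusted p but fell under 2-fold, and the other 13 kept both. No cause of these differences was tested.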

How the results depend on the processing

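Between KO-IR and WT-IR 847 of all 16755 probe sets were called (496 higher, 351 lower), between KO and WT 740, 658 in both with the same direction, and in the interaction 25. Leaving out 1 array at a time gave 828 to 866 (480 to 503 higher, 345 to 368 lower), 730 to 752, 648 to 662 and 23 to 26, and 24 of the p53 targets called higher each time. With a fold threshold of 1.5 these counts were 2379 (1273 higher, 1106 lower), 2094, 1849 and 83, and with no fold threshold 7470 (3926 higher, 3544 lower), 7230, 6201 and 230, with 42 p53 targets higher. Quantile normalization gave 800 calls (406 higher, 394 lower) and 14 interaction calls. Of the 23 interaction genes of 1 symbol 13 kept the call there, and Cdkn1a, Mdm2, Phlda3, Mybl1, Vnn1, Lpin1, Polk, Fas, Ddias and Hyal1 fell under 2-fold while passing the adjusted p. Leaving out single arrays took the interaction under 2-fold for Fas (KO-IR replicate 2), Polk (KO-IR replicate 3), Lpin1 (WT replicate 1) and Polr2h (WT replicate 2). The lists that moved by over 1.5 times, other than by the fold threshold, held 1 cyclin or inhibitor and 4 growth factors or receptors called higher under quantile normalization, 1 mesothelial marker called higher under both scalings and without any 1 of 4 arrays, 5 collagens called lower without KO-IR replicate 1, 1 imprinted gene called lower without KO-IR replicate 2 or WT-IR replicate 1, 1 apoptosis regulator called lower without KO-IR replicate 3 or WT-IR replicate 3, and 1 necroptosis gene called lower, against 0, without WT-IR replicate 3. The p53 targets and ribosome genes kept the sign of their medians under each scaling. Some list medians near 0 changed sign under quantile normalization. The median log2 fold change of the Pak family and its partners went from 0.002 to -0.011. The median interaction of interferon-stimulated genes went from 0.02 to -0.04.

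Replicate numbers did not pair the samples: same-numbered KO-IR and WT-IR arrays had deviations from their group means that correlated at -0.127, 0.075 and -0.144 across probe sets. With the replicate number as a block, 847 probe sets were called and 24 in the interaction, where Polr2h was lost (adjusted p = 0.0518). The methods' t-test called 843, and with it Bbc3 lost the adjusted p (0.0978). Without KO-IR replicate 1, Pak4 passed it (0.0246). Arrays carry no counts and the values no background, so what is too dim to measure cannot be told from what does not differ.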
